A study of Mus musculus with 6 samples.

Results

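Brown and beige fat regulators were examined in mouse primary white adipocytes that carried miR-182-5p mimic or a mimic control. The set holds 9 genes chosen by symbol, Ucp1, Ppargc1a, Ppargc1b, Prdm16, Cidea, Dio2, Elovl3, Kcnk3 and Tbx15, out of 22609 genes listed, and all 9 were found in the count lists. RNA-Seq was done on 6 samples, 3 with mimic control (genotype label control, source label control vector) and 3 with miR-182-5p mimic (genotype label miR182 overexpression). Both groups came from C57BL6 male mice aged 3 weeks, as primary cultures grown from the stromal cells of inguinal fat and differentiated in the dish. The labels name electroporation as the delivery, whereas the study's methods describe a lipid reagent for mimics and give a different age for the mice whose fat was cultured. Samples are numbered 1 to 3 in each group, and since nothing states that they came from separate cell preparations, the p values measure the spread between these samples, which may be technical. The comparison asks whether thermogenic regulators of cultured white adipocytes moved when miR-182-5p was raised.

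Brown and beige adipocytes burn fuel to make heat, mainly through UCP1, a carrier of the inner mitochondrial membrane that lets protons return without making ATP. The program is set by transcriptional regulators, among them PRDM16, which favours brown and beige identity, and the coactivators PGC1α (Ppargc1a) and PGC1β (Ppargc1b), which drive mitochondrial genes together with nuclear receptors. Cold acts through norepinephrine and cAMP, which raise Ucp1, Ppargc1a and Dio2, the deiodinase that makes active thyroid hormone inside the cell. Subcutaneous white fat holds cells that can take on this program, and the program is low until it is stimulated.

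A miRNA lowers mRNAs that pair with its seed, bases 2 to 8 from its 5′ end. The mature sequence is shown because it defines the letters searched for in the regulators' transcripts, with the seed in capitals. It lies on the minus strand of GRCm38.p6 at chr6:30165962-30165986, within the Mir182 hairpin, and is taken from RefSeq.
miR-182-5p: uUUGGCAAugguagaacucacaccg

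The match to the whole seed is TTGCCAA, the form followed by an A is TTGCCAAA, and the form with the last 6 seed matches and that A is TGCCAAA, which overlaps both. Each gene's GENCODE M21 transcript with the longest 3′-UTR was searched. TTGCCAA was held in the 3′-UTR by 10.9% of 20999 genes, TTGCCAAA by 4.25% and TGCCAAA by 12%. Of the 9 regulators, 1 held TTGCCAA there, namely Dio2, and its copy was the 8-base form. Dio2 also held 2 other copies of TGCCAAA, and Prdm16 held 1. These sites, the only matches in the 3′-UTRs of the 9 genes, are shown with 8 bases on each side and the matching 7 bases in capitals, read 5′ to 3′ on the transcript.
Dio2, TTGCCAA, last exon, minus strand, GRCm38 chr12:90726422-90726428: gctccttaTTGCCAAagtgtcaa
Dio2, TGCCAAA, last exon, minus strand, GRCm38 chr12:90728518-90728524: gttgttccTGCCAAAttcctaca
Dio2, TGCCAAA, last exon, minus strand, GRCm38 chr12:90727963-90727969: tagttacaTGCCAAAtcaagggt
Prdm16, TGCCAAA, last exon, minus strand, GRCm38 chr4:154319220-154319226: tgttaatgTGCCAAAtacccctg

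The 3′-UTRs searched were 4860 bases long for Dio2, 4785 for Prdm16, 3930 for Ppargc1a and 547 for Ppargc1b. None of the 3 forms was found in any part of the transcripts of Ppargc1a, Ppargc1b, Cidea, Kcnk3 or Tbx15. In the coding sequence, TGCCAAA occurred 1 time in Ucp1 (exon 1) and 1 time in Elovl3 (exon 4). A match is a string of letters and no measured binding, and Dio2 was too low to compare (below). RefSeq promoter windows, from just before to just after each gene start, matched 4 of the 9 regulators. The cAMP response element TGACGTCA, on either strand, was in the window of Dio2 and in 1.88% of 27025 promoters, and its core TGACG, which the full element contains, was in those of Dio2, Ppargc1a and Ucp1 and in 21% of promoters. The ERR element TCAAGGTCA and the DR1 element were in none of the 4 windows and in 0.407% and 0.0444% of promoters.

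Reads counted on genes ranged from 25869810 to 28796712 per sample. All 12 adipocyte markers had enough reads to be tested, and their summed level was 14331 to 15111 CPM (reads per 1000000 reads of the TMM-scaled library) with mimic control and 10326 to 11615 with the mimic. Of these 12 genes, 3 were called lower (rule below), and 8 were lower and 2 higher past the adjusted p alone. The shares of all genes tested were 5.48%, 23.5% and 23.2%. Fibroblast and preadipocyte markers were also high, at 21007 to 22093 CPM in sum against 19824 to 20669, and most of it was Col1a1 (19241 ± 610 and 18637 ± 386 CPM, SD, n = 3). Of the 8 tested, 4 were called lower, against the same 5.48% of all genes tested. Summed macrophage markers were between 12.5 and 15.9 CPM in all 6 samples. Most of the sum was Csf1r (6.07 CPM with mimic control, 6.55 with the mimic) and Cd68 (5.63 and 4.76), while Itgam had at most 2 reads. Of the 4 tested, 1 was called lower, Lyz2 (1.24 and 0.795 CPM), a call that DESeq2 did not make. Endothelial markers summed to 8.13 to 9.26 CPM with mimic control and 5.08 to 5.74 with the mimic, and of the 3 tested the one called was Tek (6.05 to 2.43 CPM), while Kdr stood at 1.59 and 2.14 and Cdh5 at 0.554 and 0.502 CPM. Of 7 skeletal muscle markers 3 were at 0, while Acta1, at 18.4 ± 0.223 CPM with control and 30.5 ± 2.19 with the mimic, brought the sum from between 18.9 and 19.2 to between 29 and 33.3 CPM. In such bulk samples fewer cells of a type and less RNA per cell cannot be told apart.

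Of the 9 regulators, 7 passed the filter on low counts and were tested, and Ucp1 and Dio2 did not and are too low to compare. The rule for a call asked for a 1.5-fold change or more together with an adjusted p under 0.05 (Benjamini-Hochberg, over the 13117 genes that edgeR's quasi-likelihood test covered). By this rule 7.45% of all genes tested were called, 1.97% higher and 5.48% lower, and 1 of the 7 regulators was called, Ppargc1b, which fell. None of the 7 was called higher by edgeR, DESeq2 or limma-voom, and 2 were higher at an unadjusted p under 0.05 (Kcnk3 and Tbx15). The adjusted p alone was passed by 46.7% of all genes tested and by 3 of the 7 regulators, Ppargc1b and Prdm16 (lower) and Kcnk3 (higher). In 2 of the 7, Ppargc1b and Prdm16, the 3 values of one group did not overlap those of the other, against 54.8% of all genes tested. With 7 regulators tested, Cidea and Elovl3 among them on few reads, these shares are descriptions, and no difference from all genes is read from them.

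**Figure D1:**
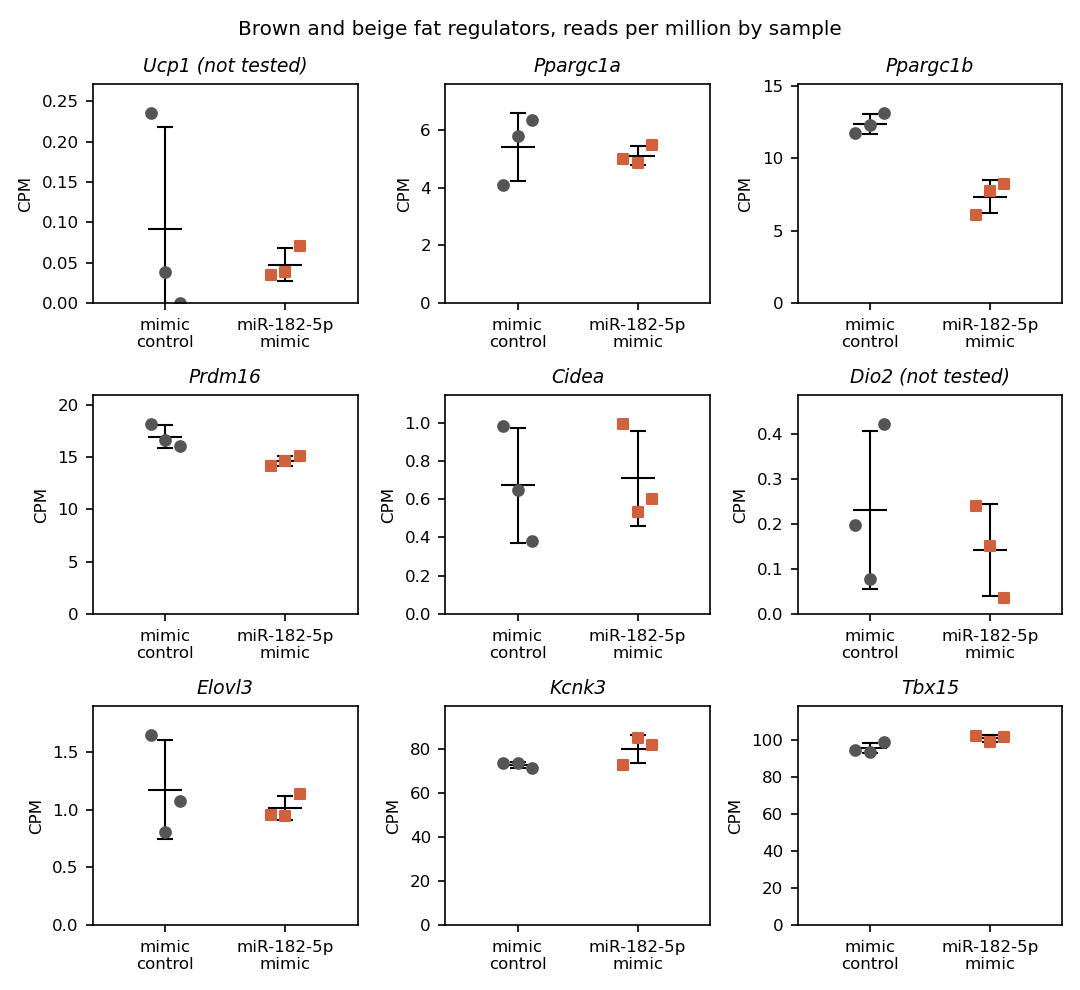
CPM of the 9 regulators in each of the 6 samples (circles, mimic control; squares, miR-182-5p mimic), with the mean and SD of 3 samples, each panel on its own axis from 0. The groups separate in Ppargc1b (11.7 to 13.1 against 6.10 to 8.21 CPM) and Prdm16 and overlap in the other 7, and Ucp1 and Dio2 lie under 0.5 CPM in every sample.

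Ppargc1b, on the minus strand of GRCm38 chromosome 18 from 61298136 to 61400431, encodes PGC1β, which supports mitochondrial and lipid metabolic genes in many tissues, brown fat included. It had 299, 322 and 343 reads in control samples and 178, 205 and 232 with the mimic, or 11.7, 12.3 and 13.1 against 6.10, 7.78 and 8.21 CPM. Each mimic sample lay below each control sample, and mimic replicate 1 was the lowest. The mean fell from 12.4 ± 0.700 to 7.36 ± 1.12 CPM (SD, n = 3), a log2 fold change of -0.75 (SE, standard error, 0.10, 95% interval -0.97 to -0.54), and adjusted p was 3.05e-05 by edgeR's quasi-likelihood test. That is a 1.69-fold lower level, and the end of the interval nearest to 0 lies just short of the 1.5-fold line (0.585 on the log2 scale). The call was made in all 6 fits that left out 1 sample, with log2 fold changes from -0.84 to -0.63, the smallest change without mimic replicate 1.

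Since adipocyte markers also moved with the mimic, Ppargc1b was set against 3 of them within each library, a choice made after their values were seen. Per read of Plin1, which coats the lipid droplet, there were 0.0187 ± 0.000991 Ppargc1b reads in control samples and 0.0115 ± 0.000892 with the mimic (SD, n = 3), with no overlap. Per read of Adipoq, the adiponectin gene, there were 0.0134 ± 0.00101 and 0.0109 ± 0.000839, again without overlap. Per read of Fabp4, which encodes a fatty acid binding protein and was itself called lower, the groups overlapped, at 0.00375 ± 0.000323 and 0.00355 ± 0.000367. These ratios are a description, with no test. Ppargc1b was lower relative to Plin1 and Adipoq in all 3 mimic samples but not relative to Fabp4. The part of adipocyte content in its fall was not tested.

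Ppargc1a (GRCm38 chromosome 5, 51454250 to 51567726, minus strand) encodes PGC1α, the cold-inducible coactivator of Ucp1 and of mitochondrial biogenesis. It had 104, 151 and 166 reads in control samples and 146, 128 and 155 with the mimic. Control replicate 1 was the lowest of the 6 and control replicate 3 the highest, and all 3 mimic samples lay between them. The means were 5.41 ± 1.18 and 5.11 ± 0.331 CPM (SD, n = 3), with a log2 fold change of -0.08 (SE 0.14, adjusted p = 0.668 by edgeR). Its 95% interval, -0.39 to 0.22, lay inside the 1.5-fold lines on both sides. Within a library, the reads of Ppargc1a per read of Ppargc1b were 0.348, 0.469 and 0.484 with mimic control and 0.820, 0.624 and 0.668 with the mimic. The pair was chosen after the values were seen, and the separation of the groups follows from the fall of Ppargc1b, so it is a description with no test.

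Among transcription factors, Prdm16 (GRCm38 chromosome 4, 154316125 to 154636873, minus strand) is the zinc finger regulator that keeps brown and beige adipocytes from white or muscle fates. It had 462, 433 and 419 reads in control samples and 412, 386 and 425 with the mimic, which scaled to 18.1, 16.6 and 16.05 against 14.1, 14.6 and 15.05 CPM. The groups did not overlap, by a gap of about 1 CPM. The log2 fold change was -0.21 (SE 0.066, 95% interval -0.36 to -0.07, adjusted p = 0.0173 by edgeR), a fall of 13.7%, well inside the 1.5-fold line. This pass of the adjusted p was lost without control replicate 1 (adjusted p = 0.0846), without mimic replicate 1 (0.0557) and with DESeq2 (0.0511). Over its exons Prdm16 shares 109 of 9321 bases with an antisense RNA gene. It is the tested regulator with a TGCCAAA in its 3′-UTR, shown above.

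Tbx15 (GRCm38 chromosome 3, 99240381 to 99354259, plus strand) encodes a T-box factor that is higher in subcutaneous than in visceral white fat and is known to take part in brown and beige differentiation. It was the most highly expressed regulator, with 2412, 2451 and 2589 reads in control samples and 2994, 2613 and 2873 with the mimic. After scaling these were 94.7, 93.8 and 99.2 against 103, 99.1 and 102 CPM, and control replicate 3 reached the level of mimic replicate 2. The log2 fold change was 0.08 (SE 0.033, adjusted p = 0.0688 by edgeR), with a 95% interval from 0.01 to 0.15. Without control replicate 3 it passed the adjusted p (0.0383), at a log2 fold change of 0.10.

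Among the effector genes, Ucp1 (GRCm38 chromosome 8, 83290352 to 83298452, plus strand) had 6, 1 and 0 reads in control samples and 1, 1 and 2 with the mimic. Control replicate 1 held most of the reads of its group. The pooled level was 0.0901 CPM (exact Poisson 95% interval 0.0362 to 0.186) with mimic control and 0.0477 (0.0130 to 0.122) with the mimic, where 3 reads correspond to 0.103 to 0.118 CPM by library. The ratio of mimic to control was 0.530, with an exact conditional binomial 95% interval from 0.114 to 2.08. That interval includes a large fall, no change and a rise to 2.08-fold, so no direction can be read at this depth. Both intervals cover counting error only.

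Dio2 (GRCm38 chromosome 12, 90724552 to 90738438, minus strand), the type 2 deiodinase, had 5, 2 and 11 reads in control samples and 7, 4 and 1 with the mimic. The samples of both groups were interleaved. The pooled ratio of mimic to control was 0.618 (exact conditional binomial 95% interval 0.272 to 1.36). The one regulator with a full seed match in its 3′-UTR was therefore among those that could not be compared.

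Cidea and Elovl3 passed the filter on few reads. Cidea (GRCm38 chromosome 18, 67343604 to 67367785, plus strand), a lipid droplet protein used as a brown fat marker, had 25, 17 and 10 reads in control samples and 29, 14 and 17 with the mimic. Each group held 1 high sample, replicate 1 in both, near 1 CPM. The log2 fold change was 0.09 (SE 0.35, adjusted p = 0.845 by edgeR), and its 95% interval from -0.66 to 0.85 reached past 1.5-fold on both sides. Elovl3 (GRCm38 chromosome 19, 46131897 to 46135694, plus strand), a fatty acid elongase that rises with cold in brown fat, had 42, 21 and 28 reads in control samples and 28, 25 and 32 with the mimic. Control replicate 1 was the highest and control replicate 2 the lowest of the 6 samples in CPM. Its log2 fold change was -0.21 (SE 0.26, 95% interval -0.77 to 0.35, adjusted p = 0.543 by edgeR). Without control replicate 1 the estimate for Elovl3 was 0.11, and leaving out 1 sample moved that for Cidea between -0.24 and 0.46.

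Control replicate 1 was the highest of its group for Ucp1, Cidea, Elovl3, Prdm16 and, by under 0.1 CPM, Kcnk3, and the lowest for Ppargc1a and Ppargc1b. The coefficient of variation in the control group was 1.84% for Kcnk3, 2.98% for Tbx15, 5.65% for Ppargc1b, 6.44% for Prdm16, 21.9% for Ppargc1a, 36.8% for Elovl3 and 44.6% for Cidea. In this group it was largest where reads were few. With the mimic the order was another. It was 35.1% for Cidea, 15.2% for Ppargc1b, 10.2% for Elovl3, 8.05% for Kcnk3, 6.48% for Ppargc1a, 3.23% for Prdm16 and 1.75% for Tbx15.

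Kcnk3 (GRCm38 chromosome 5, 30588170 to 30625271, plus strand) encodes the potassium channel TASK-1, which is enriched in brown and beige adipocytes and restrains their response to norepinephrine. It had 1874, 1921 and 1860 reads in control samples and 2121, 2241 and 2309 with the mimic. In CPM these were 73.6, 73.5 and 71.2 against 72.6, 85.0 and 81.8, with mimic replicate 1 inside the control range. The log2 fold change was 0.13 (SE 0.049, 95% interval 0.03 to 0.24, adjusted p = 0.0410 by edgeR), a rise of 9.57%. With 1 sample left out, the rise passed the adjusted p in 1 fit of 6, the one without mimic replicate 1 (log2 fold change 0.20, adjusted p = 0.00034). In the other 5 the adjusted p was between 0.0790 and 0.178, and it was 0.0515 with limma-voom and 0.0602 with upper-quartile factors. Over its exons 229 of 3976 bases are shared with an antisense gene, and whether counting used the strand is not given in the sources used here.

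**Figure D2:**
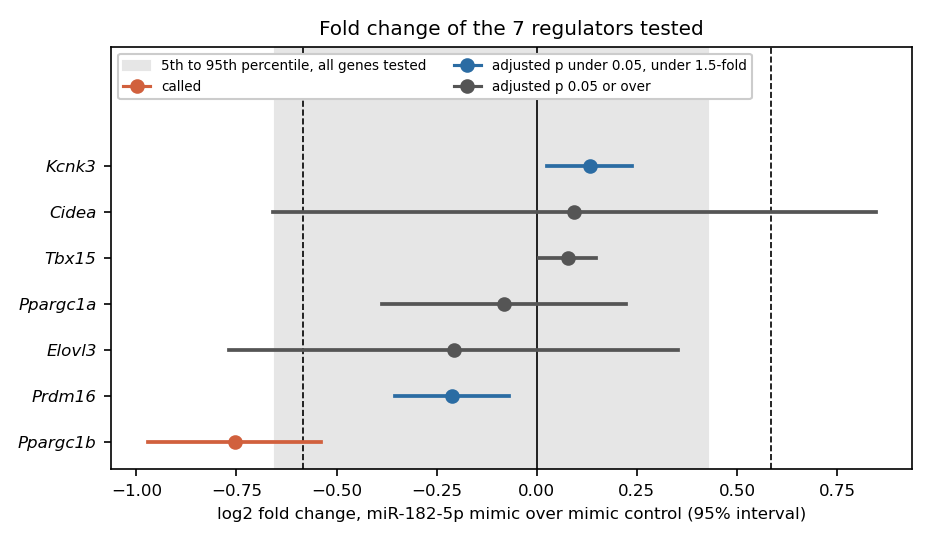
log2 fold change, miR-182-5p mimic over mimic control, with its 95% interval for the 7 regulators tested; dashed lines mark 1.5-fold and the grey band holds the 5th to 95th percentile of all 13117 genes tested (-0.65 to 0.43). Ppargc1b lies left of the band, the intervals of Ppargc1a, Prdm16, Kcnk3 and Tbx15 stay between the dashed lines, and those of Cidea and Elovl3 do not.

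**Figure D3:**
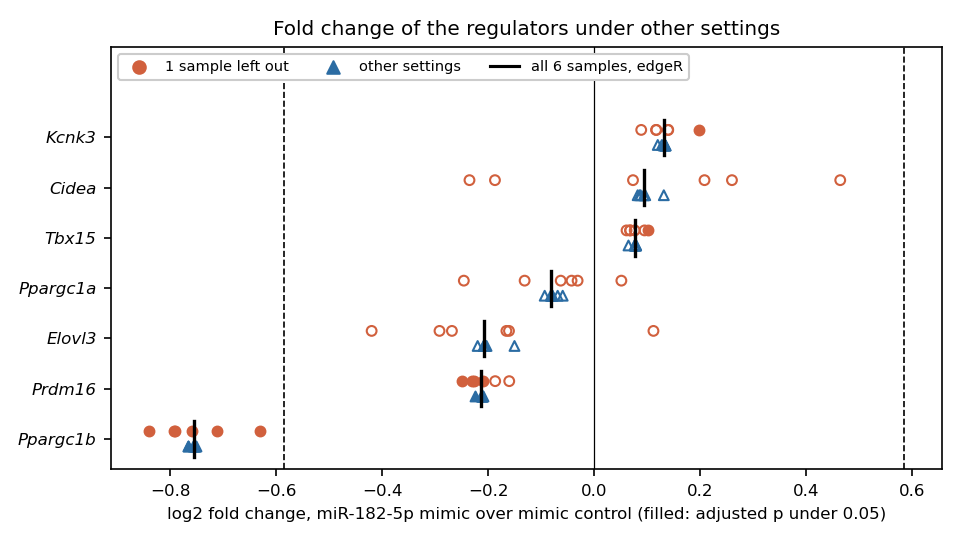
log2 fold change of the 7 regulators when 1 sample was left out (circles) or under another test, normalization, filter or a replicate block (triangles), filled where the adjusted p was under 0.05; the bar is the value of all 6 samples. Ppargc1b stayed between -0.84 and -0.63 and filled throughout, while Cidea, Elovl3 and Ppargc1a crossed 0.

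The levels of different genes were compared as CPM per kb of exon, with exon lengths from GENCODE M21. In mimic control the order was Tbx15 (25.6 ± 0.763 CPM per kb, SD, n = 3), Kcnk3 (18.3 ± 0.338), Ppargc1b (3.11 ± 0.176), Prdm16 (1.82 ± 0.117), Ppargc1a (0.820 ± 0.179), Cidea (0.603 ± 0.269), Elovl3 (0.595 ± 0.219), Ucp1 (0.0558 ± 0.0773) and Dio2 (0.0398 ± 0.0301). The ranges of Ppargc1a, Cidea and Elovl3 overlapped one another, as did those of Ucp1 and Dio2, while the first 4 genes stood apart from each other. With the mimic, Ppargc1b (1.53 to 2.06 CPM per kb) overlapped Prdm16 (1.51 to 1.61), so that these neighbours were no longer apart.

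Each regulator was also set beside its relatives, 26 genes of the same families, of which 19 were tested. Ucp1 was the lowest of the UCP genes listed: Ucp2 stood at 9.76 ± 0.290 and Ucp3 at 2.66 ± 0.199 CPM per kb in mimic control, both above Ucp1. Cidea, at 0.603 CPM per kb, lay between Cideb (0.120 ± 0.107) and Cidec (179 ± 3.62), the CIDE protein of white lipid droplets. Elovl1, Elovl5 and Elovl6 ranged from 17.5 to 47.3 CPM per kb, above Elovl3 (0.595), Elovl4 (0.676 ± 0.0368) lay beside it, and Elovl2 and Elovl7 lay below it at under 0.02. In the PGC-1 family, Pprc1, the third coactivator, was the highest at 11.2 ± 0.329 CPM per kb and rose slightly with the mimic (log2 fold change 0.13, SE 0.036, adjusted p = 0.00903 by edgeR), while Ppargc1b fell. Dio3, the deiodinase that inactivates thyroid hormone, was the only deiodinase gene with enough reads to be tested. It fell from 4.38 ± 0.123 to 1.76 ± 0.189 CPM (SD, n = 3), on 110, 118 and 112 reads against 45, 49 and 53, a log2 fold change of -1.32 (SE 0.14, adjusted p = 2.67e-06 by edgeR). Dio1 had 0 reads in every sample, which allows levels of up to 0.103 to 0.118 CPM by library (3 reads, about the 95% limit of a count of 0). Among potassium channels, Kcnk2 (TREK-1) was called higher, from 0.913 ± 0.105 to 1.57 ± 0.156 CPM, and Kcnk5 lower, from 0.836 ± 0.0770 to 0.307 ± 0.155 CPM. Reads were few for both. Kcnk2 had 22, 27 and 22 against 44, 46 and 41, and Kcnk5 had 21, 24 and 20 against 14, 7 and 5. In all, 1 of the 19 relatives tested was called higher and 2 lower, against 1.97% and 5.48% of all genes tested. Past the adjusted p alone 5 were higher and 5 lower, against 23.2% and 23.5%, so the relatives moved both ways. Their median log2 fold change was -0.36, where the median of all genes tested was -0.00434.

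**Figure D4:**
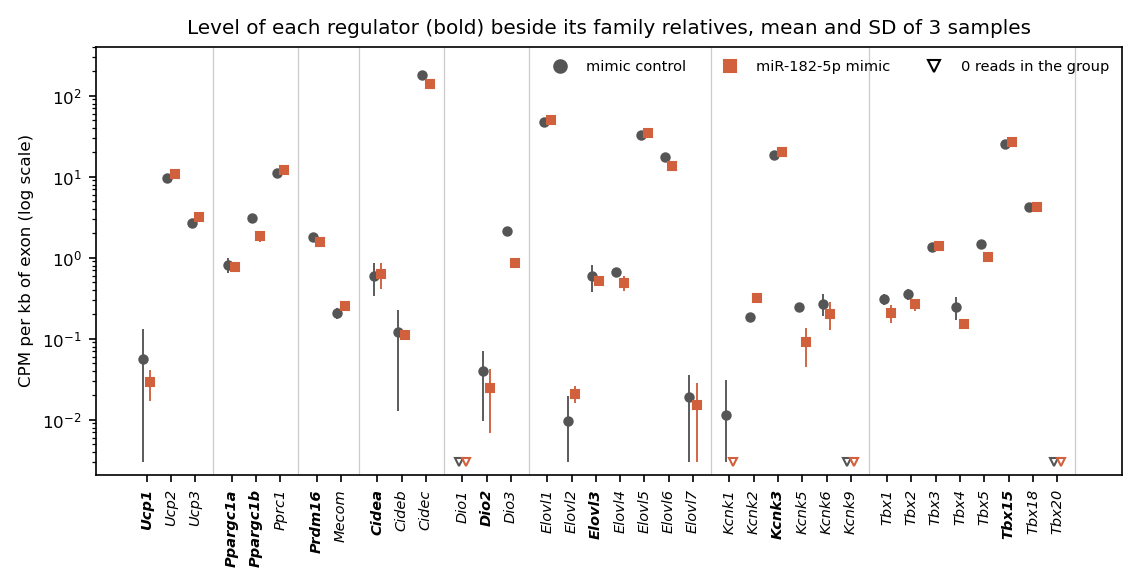
Level of each regulator (bold) and its family relatives in CPM per kb of exon on a log axis, mean and SD of 3 samples (circles, mimic control; squares, miR-182-5p mimic; open triangles, 0 reads in the group; bars end at the foot of the axis where the SD reaches it). Ucp1, Cidea and Elovl3 lie below Ucp2, Cidec and Elovl1, Elovl5 and Elovl6, while Tbx15 and Kcnk3 are the highest among the listed genes of their own families.

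Genes that work with these regulators were taken from fixed lists by role. With the 26 family relatives above counted in, the lists held 133 genes besides the 9 regulators, of which 111 were tested. Of these 12 were called lower (10.8%, against 5.48% of all genes tested) and 4 higher (3.6%, against 1.97%), and their median log2 fold change was -0.06. The share past the adjusted p alone was 34.2% lower and 23.4% higher, against 23.5% and 23.2% of all genes tested. These counts are descriptions, since the genes of a list are not independent and were chosen with earlier results known.

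Among 12 thermogenic effectors tested, 3 were called lower and none higher, and 7 were lower and 1 higher past the adjusted p alone, with a median log2 fold change of -0.29. Clstn3 fell from 13.0 ± 0.689 to 7.48 ± 0.723 CPM (SD, n = 3), Acot11, a thioesterase of brown fat, from 6.82 ± 0.824 to 4.46 ± 0.0651, and S100b, reported to promote the innervation of thermogenic fat, from 3.27 ± 0.10 to 2.0 ± 0.530. The call of Acot11 was lost without control replicate 2 and that of S100b without mimic replicate 1. Cox7a1 and Cox8b, cytochrome oxidase subunits typical of brown fat and muscle, were lower by 0.46 and 0.47 on the log2 scale (adjusted p = 2.34e-05 and 0.000249 by edgeR) and so fell short of 1.5-fold. Plin5, a droplet protein of oxidative tissues, was the 1 gene higher past the adjusted p, with a log2 fold change of 0.31 (adjusted p = 0.00102 by edgeR). The most abundant gene of this list, Acaa2, an enzyme of fatty acid oxidation, was lower by 0.38.

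Of 22 transcriptional partners tested, 1 was called, and 7 were higher and 5 lower past the adjusted p alone, with a median of 0.05. Irf4, a factor that works with PGC1α on thermogenic genes, fell from 10.4 ± 1.10 to 5.85 ± 0.639 CPM (SD, n = 3), a log2 fold change of -0.83 (SE 0.10, adjusted p = 1.6e-05 by edgeR). The list's most abundant gene, Cebpa, a core adipocyte factor, was lower by 0.56 (adjusted p = 4.84e-07 by edgeR), just short of 1.5-fold. The 7 partners higher past the adjusted p were also short of 1.5-fold. The largest rises among them were those of Foxc2 and Zbtb7b, at 0.43 and 0.33 (adjusted p = 0.00238 and 4.17e-07 by edgeR). Of 13 repressors of browning tested, 1 was called lower, and 5 were higher and 4 lower past the adjusted p. That gene was Nr1h3, which encodes the sterol receptor LXRα, a repressor of Ucp1. It fell from 59.7 ± 2.83 to 27.2 ± 2.42 CPM (SD, n = 3), a log2 fold change of -1.13 (SE 0.060, adjusted p = 3.14e-09 by edgeR). Ncor1, the most abundant repressor here, rose by 0.17 on the log2 scale.

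The 15 partners and targets of the PGC-1 coactivators in mitochondrial biogenesis held no call by edgeR, where 7.45% of all genes tested were called. By edgeR 5 had an unadjusted p under 0.05, and DESeq2, limma-voom and the replicate block made no call either. With 15 genes, no difference from all genes is read from this count. Past the adjusted p, 1 was higher and 3 lower, against 23.2% and 23.5% of all genes tested, and the median log2 fold change was -0.06. Vegfa, the most abundant, had a log2 fold change of 0.06 (adjusted p = 0.119 by edgeR). Ppargc1b itself is not counted in it.

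Of 15 beige and brown identity markers tested, 4 were called lower and 1 higher, and 7 were lower and 3 higher past the adjusted p alone, with a median of -0.17. Tmem26, a surface marker of beige cells, fell from 1.34 ± 0.240 to 0.477 ± 0.108 CPM (SD, n = 3), on 27, 38 and 39 reads against 12, 11 and 17. Slc36a2, an amino acid transporter of brown and beige adipocytes and the most abundant of the list, fell from 196 ± 5.20 to 115 ± 11.5 CPM, a log2 fold change of -0.77. Slc27a1, a fatty acid transport protein, and Pdk4, which holds back pyruvate oxidation, fell by 0.73 and 0.81 on the log2 scale, each in all 3 mimic samples. Kcnk2 was the marker called higher. The other markers higher past the adjusted p, both short of 1.5-fold, were P2rx5 and Hoxc8. Their log2 fold changes were 0.35 and 0.17 (adjusted p = 0.0369 and 0.00401 by edgeR). The beige marker Tnfrsf9 and the brown marker Zic1 were too low to compare, with 9 and 28 reads in all samples together, and Myf5 had 0 reads in every sample.

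Of 18 genes for inducing signals and their receptors, 3 were called higher and 1 lower, and 5 were higher and 7 lower past the adjusted p alone, with a median of -0.00484. The 3 were Fgf21, Ptgs2 and Il6, of which Ptgs2, the prostaglandin synthase, rose from 17.6 ± 0.884 to 44.0 ± 7.81 CPM (SD, n = 3). Klb, the coreceptor of FGF21, was called lower (log2 fold change -0.59). Il6 and Klb lie at the 1.5-fold line: Il6 lost its call with limma-voom, with the replicate block and without control replicate 1, mimic replicate 1 or mimic replicate 2, and Klb lost it without control replicate 2 or mimic replicate 1. Adrb3, the norepinephrine receptor of adipocytes, was lower by 0.27 on the log2 scale (adjusted p = 0.00125 by edgeR). Fgfr1, the most abundant of the list, was lower by 0.26.

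Of the 12 genes called lower in these lists, relatives included, 2 held TTGCCAA in the 3′-UTR, Acot11 and Pdk4, with 2 copies each. Of the 4 called higher, 1 held it, Kcnk2. Of the 92 genes of these lists that were tested and not called and have an annotated 3′-UTR, 20 did. The share over all 20999 genes with an annotated 3′-UTR, expressed or not, was 10.9%. These sets differ in expression and were not matched for 3′-UTR length, so no excess is read from them. Ppargc1b, Irf4, Nr1h3, Tmem26, Dio3 and Slc36a2 held none.

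**Figure D5:**
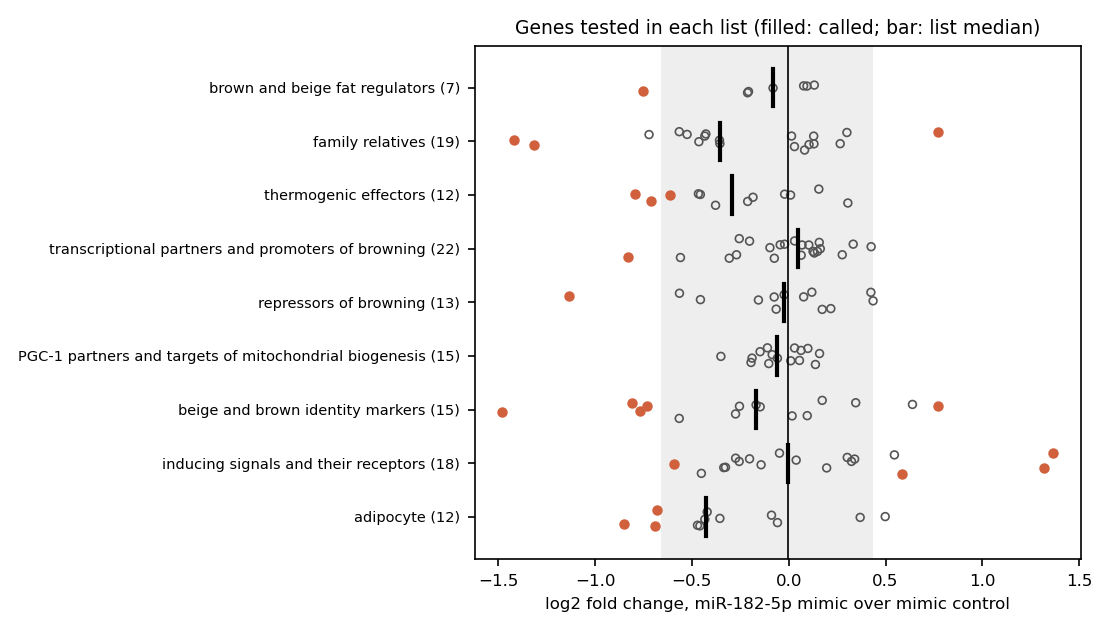
log2 fold change of the genes tested in each list (number tested in brackets; filled, called; bar, list median), over the 5th to 95th percentile of all genes tested (grey) and their median (line). The medians of effectors (-0.29), relatives (-0.36) and adipocyte markers (-0.43) sit left of the line. Those of partners, repressors and PGC-1 targets lie around it. The relatives spread to both sides, with 5 higher and 5 lower past the adjusted p alone.

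For each regulator tested, the 2 genes with the closest profile over the 6 samples were named by Pearson's r of log2(CPM + 0.1), as a description, since the 6 points share the group difference and all genes tested were searched. Ppargc1b was most like Acp2 (r = 0.998) and Chst15 (r = 0.998), and 1507 genes reached r of 0.9 with it. Prdm16 was most like Ttf1 (r = 0.997) and Cep192 (r = 0.993), Tbx15 most like Zufsp (r = 0.999) and Fstl3 (r = 0.995), and Kcnk3 most like Cox4nb (r = 0.989) and Grsf1 (r = 0.984). Ppargc1a was nearest to Trim13 (r = 0.988) and Hist1h2bg (r = 0.974), Elovl3 to Fance (r = 0.987) and Zfp646 (r = 0.984), and Cidea to Ropn1l and Ankrd16 (r = 0.967 for both). Ppargc1a, Elovl3 and Cidea had 36, 44 and 31 genes at that limit.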

How the data were processed

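RNA from 3 mimic control and 3 miR-182-5p mimic cultures was sequenced from strand-specific poly(A) libraries. The files deposited by the authors hold 1 raw count per gene symbol and sample, and the submitters' processing notes name bcl2fastq, TopHat2, HTSeq and the mm9 build, with versions and strand setting not given in the sources used here. The 5 tally lines that close each list are no genes and were left out; the tally for reads outside genes held 12.7% to 13.0% of the uniquely aligned reads.

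Counts were tested in R 4.3.3 with edgeR 4.0.16 (glmQLFit and glmQLFTest, two-sided, no block, after TMM and filterByExpr set to 10 counts), with Benjamini-Hochberg adjustment over 13117 genes. Standard errors come from the unshrunk coefficient and the F statistic, and 95% intervals from the t distribution with the test's degrees of freedom. CPM uses TMM-scaled library sizes. Counts under the filter got exact Poisson and conditional binomial intervals (scipy 1.17.1), which cover counting error only. Alternatives were DESeq2 1.42.0, limma-voom (limma 3.58.1), 2 other normalizations, 2 other filters, a replicate block, a 2-fold cutoff and leaving out each sample. Tests were tried on simulated counts with known answers. Replicates were not copies of 1 library, since chi-square divided by its degrees of freedom, near 1 for sampling noise, was 2.13 to 7.19 between them.

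The regulators and the lists were chosen with earlier results of these data known. The rule for naming took all 9 regulators, from each list the genes called (up to 6 by smallest p) and the most abundant gene, and the 2 nearest profiles of each regulator. Genes named outside it were chosen after their values were seen. They include relatives and Cox7a1, Cox8b, Plin5, Foxc2, Zbtb7b, P2rx5, Hoxc8, Adrb3, Tnfrsf9, Zic1, Myf5 and Itgam. A listed gene absent under its symbol was matched through RefSeq synonyms. GENCODE M21 on GRCm38 gave lengths, positions and transcripts, a later build than that of the counts, which carry no coordinates. Tables were built with Python 3.11.15 (pandas 2.3.3, numpy 2.4.6) and figures with matplotlib 3.10.9.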

Additional observations from a re-analysis of the deposited data

How the results depend on the processing

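The number of genes called stayed between 852 and 1028 in the 7 fits with another test, normalization, filter or block, and between 902 and 1011 with 1 sample left out, against 977. A 2-fold cutoff left 280 genes and 0 of the 7 regulators, where edgeR had called 1. In the other 13 settings Ppargc1b was the regulator called. The number of regulators past the adjusted p alone, 3 with all samples, lay between 1 and 3 with 1 sample left out (1 without control replicate 1) and between 2 and 3 in the other fits. With 1 sample left out the log2 fold changes ran from -0.25 to 0.051 for Ppargc1a (positive without control replicate 3), from -0.42 to 0.11 for Elovl3 (positive without control replicate 1) and from -0.24 to 0.46 for Cidea (negative without mimic replicate 1 or control replicate 3), none past the adjusted p. The cause of these moves was not tested. With no filter Ucp1 and Dio2 had log2 fold changes of -0.85 (standard error 1.14, adjusted p = 0.579 by edgeR) and -0.68 (standard error 0.69, adjusted p = 0.493). With the replicate block 925 genes and 1 regulator were called and 3 regulators passed the adjusted p, with Ppargc1b at -0.76, so the block changed no call among the regulators. The deviations of same-numbered samples correlated at -0.18, -0.04 and -0.08, against a mean of 0.05 for different numbers. Deviations from a mean of 3 samples are tied to one another, so these values cannot decide whether same-numbered samples shared a preparation. Depth limits Ucp1, Dio2, Cidea and Elovl3, whose intervals include changes of 1.5-fold.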
